A study of Mus musculus with 6 samples.

Results

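In ATAC-seq libraries of mouse bone marrow-derived macrophages (BMDMs), 4024 accessible sites were found at which latrunculin A (LatA) and MCSF went in opposite directions in the presence of IL-4. These sites were selected on the measured signals themselves. A site was taken when it lay on chromosomes 1 to 19, had a mean signal of at least 1.3 over the 6 libraries, and passed 1.5-fold one way in LatA + IL-4 over DMSO + IL-4 and the other way in MCSF + IL-4 over IL-4, with 0.1 added to each value. The signal is CPM (counts scaled to library size) after TMM scaling, which corrects for differences in library composition. Of 578591 sites in all, 534067 lay on these chromosomes and 122938 of them passed the filter on signal, and these are called tested sites below. The sites higher with LatA and lower with MCSF numbered 2213 and are called LatA-high sites. The sites lower with LatA and higher with MCSF numbered 1811 and are called MCSF-high sites.

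The cells were wild-type macrophages grown from the bone marrow of C57BL/6J mice (C57BL/6 in the strain label) in medium conditioned by L929 cells, a fibroblast line that secretes MCSF, so every group had met MCSF before the experiment. There were 6 groups of 1 library each. Untreated and DMSO cells received no IL-4, IL-4 and DMSO + IL-4 cells received IL-4 at 20 ng/ml for 24 h, LatA + IL-4 cells received LatA at 1 µM with that IL-4, and MCSF + IL-4 cells received MCSF at 100 ng/ml with that IL-4. DMSO + IL-4 is taken here as the control of LatA, since the study set LatA against DMSO in its other experiments. The sources used here do not state, for these libraries, the vehicle of LatA or the time of exposure to LatA or MCSF. Between 12387332 reads in sites (DMSO + IL-4) and 19889902 (Untreated) were counted per library. No replicates exist, so no comparison has a test, every ratio compares 2 libraries rather than 2 conditions, and all intervals are exact 95% intervals that cover counting error only. Fewer cells with an open site and a smaller opening in each cell cannot be told apart in such bulk libraries.

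In ATAC-seq a transposase cuts DNA that is not wrapped in nucleosomes, so that reads accumulate at promoters and enhancers in use. IL-4 acts in macrophages through the transcription factor STAT6 and drives the alternative, repair-associated programme, in which many enhancers open. LatA binds actin monomers and blocks the growth of actin filaments. MCSF, also called CSF1, is the growth factor on which macrophages depend for survival and proliferation, and it also makes them spread. The comparison asks where on the chromatin their effects diverge.

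Opposition was the rare outcome. LatA was accompanied by a signal at least 1.5-fold higher at 31.0% of tested sites and lower at 14.8%, and MCSF by a higher signal at 29.9% and a lower one at 13.9%. LatA-high sites made up 1.80% of tested sites and MCSF-high sites 1.47%, against 19533 sites that were higher in both comparisons and 4903 that were lower in both. The scatter of the 2 ratios shows the opposed sites as sparse corners beside one dense diagonal cloud.

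**Figure D1:**
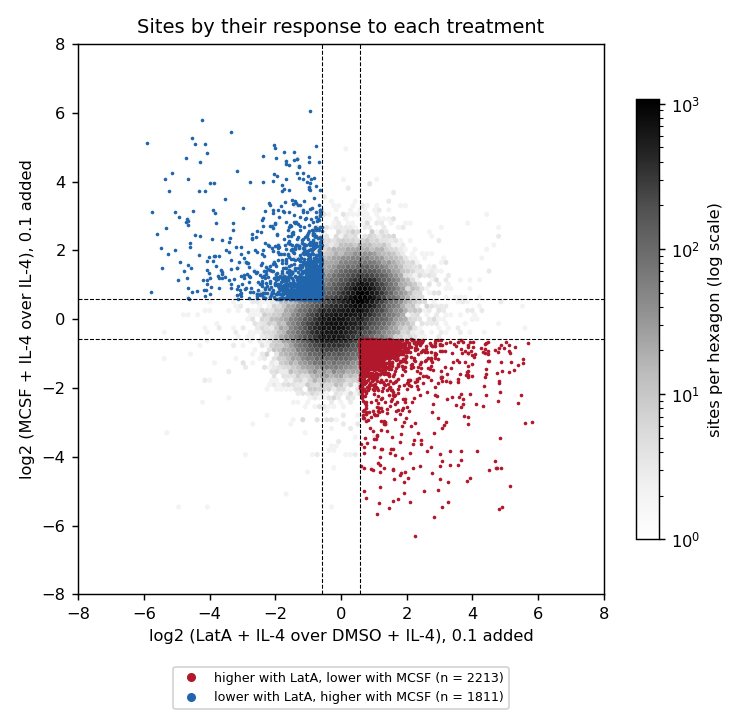
Log2 ratio of LatA + IL-4 over DMSO + IL-4 (x axis) against log2 ratio of MCSF + IL-4 over IL-4 (y axis), with 0.1 added to each signal, for the 122938 tested sites. Grey hexagons count sites on a log scale, coloured points are the 2213 LatA-high and 1811 MCSF-high sites, and dashed lines mark 1.5-fold in each direction.

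The strongest LatA-high site by mean signal lay at chr10:86391513-86392096 (mm9, 584 bp), with 909 reads in Untreated, 1015 in DMSO, 964 in IL-4, 766 in DMSO + IL-4, 1512 with LatA + IL-4 and 439 with MCSF + IL-4. After scaling the signals were 43.6, 59.2, 61.3, 61.4, 103 and 33.3 in the same order. The IL-4 and DMSO + IL-4 controls were level, LatA stood above every other library and MCSF below every other. LatA + IL-4 was 1.68-fold (1.54 to 1.84) above DMSO + IL-4, and MCSF + IL-4 was 1.84-fold (1.64 to 2.06) below IL-4. A site at chr5:11169894-11170523 had the widest separation of the 5 LatA-high sites with the highest signal, with signals of 11.1 in Untreated, 5.77 in DMSO, 13.5 in IL-4, 7.30 in DMSO + IL-4, 39.1 with LatA + IL-4 and 4.48 with MCSF + IL-4. There LatA was 5.36-fold (4.29 to 6.76) higher and MCSF 3.01-fold (2.25 to 4.09) lower than the respective control, while DMSO alone was 1.92-fold (1.51 to 2.45) below Untreated.

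At chr3:133322709-133323408 the libraries without IL-4 lay close to the IL-4 controls. Its signals were 8.53 in Untreated, 11.2 in DMSO, 8.14 in IL-4, 8.74 in DMSO + IL-4, 18.8 with LatA + IL-4 and 3.95 with MCSF + IL-4. LatA was 2.15-fold (1.72 to 2.71) higher and MCSF 2.06-fold (1.48 to 2.90) lower. Neither DMSO over Untreated nor IL-4 over its control reached 1.5-fold at this site. The site at chr4:40182413-40183994 was lower with IL-4, with 196 reads in Untreated and 68 in IL-4, and with 183 in DMSO and 47 in DMSO + IL-4. LatA + IL-4 had 112 reads, 2.03-fold (1.43 to 2.92) above its control, and MCSF + IL-4 had 14, which was 4.07-fold (2.27 to 7.84) below. A site with a response to IL-4 in the upward direction, chr10:53841605-53842042, had signals of 2.06 in Untreated and 2.68 in DMSO, 7.44 in IL-4 and 9.30 in DMSO + IL-4, 15.0 with LatA and 4.63 with MCSF. LatA-high sites thus included strong sites that were higher, lower and about level with IL-4.

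The 5 MCSF-high sites with the highest signal were more alike. In 4 of them IL-4 was accompanied by a signal at least 1.5-fold higher both without and with DMSO. At chr11:54495959-54497032 the signals were 5.18 in Untreated and 8.11 in DMSO, 21.0 in IL-4 and 26.3 in DMSO + IL-4, 15.8 with LatA and 44.5 with MCSF. IL-4 was 4.07-fold (3.26 to 5.10) above Untreated, LatA 1.66-fold (1.40 to 1.97) below its control and MCSF 2.11-fold (1.84 to 2.42) above its control. At chr1:107076000-107076842 the signal was 9.11 in Untreated, 9.51 in DMSO, 20.6 in IL-4, 29.4 in DMSO + IL-4, 10.7 with LatA and 37.3 with MCSF. The LatA library was back near the level without IL-4 at this site, and the MCSF library was the highest. The fifth of these sites, chr9:13473207-13474491, was 1.14-fold (0.960 to 1.35) above Untreated with IL-4 alone and 2.50-fold (2.11 to 2.97) above DMSO with DMSO + IL-4.

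Over all LatA-high sites the median signal was 1.63 in Untreated, 1.75 in DMSO, 2.29 in IL-4, 1.20 in DMSO + IL-4, 2.80 with LatA + IL-4 and 1.06 with MCSF + IL-4. Over all MCSF-high sites it was 1.53, 1.57, 1.21, 2.41, 1.02 and 2.66 in the same order. Among all tested sites the 6 medians lay between 1.92 and 2.39. The medians of the treated libraries differed in each direction, and so did those of the controls. The selection compares neither pair directly, but it requires the 2 ratios to pass 1.5-fold in opposite directions. A difference in at least 1 of the 2 pairs is therefore given by the choice at each site. LatA + IL-4 was the highest of the 6 libraries at 56.4% of LatA-high sites and IL-4 at 25.5%. MCSF + IL-4 was the lowest at 47.4% of them and DMSO + IL-4 at 31.0%. At MCSF-high sites MCSF + IL-4 was the highest at 50.5% and DMSO + IL-4 at 30.8%, and LatA + IL-4 was the lowest at 39.8% and IL-4 at 27.6%. Over all tested sites LatA + IL-4 was the highest at 32.9% and the lowest at 17.2%, and MCSF + IL-4 the highest at 21.6% and the lowest at 15.3%. The selection sets each treated library above or below its control, so the shares at opposed sites follow partly from it.

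**Figure D2:**
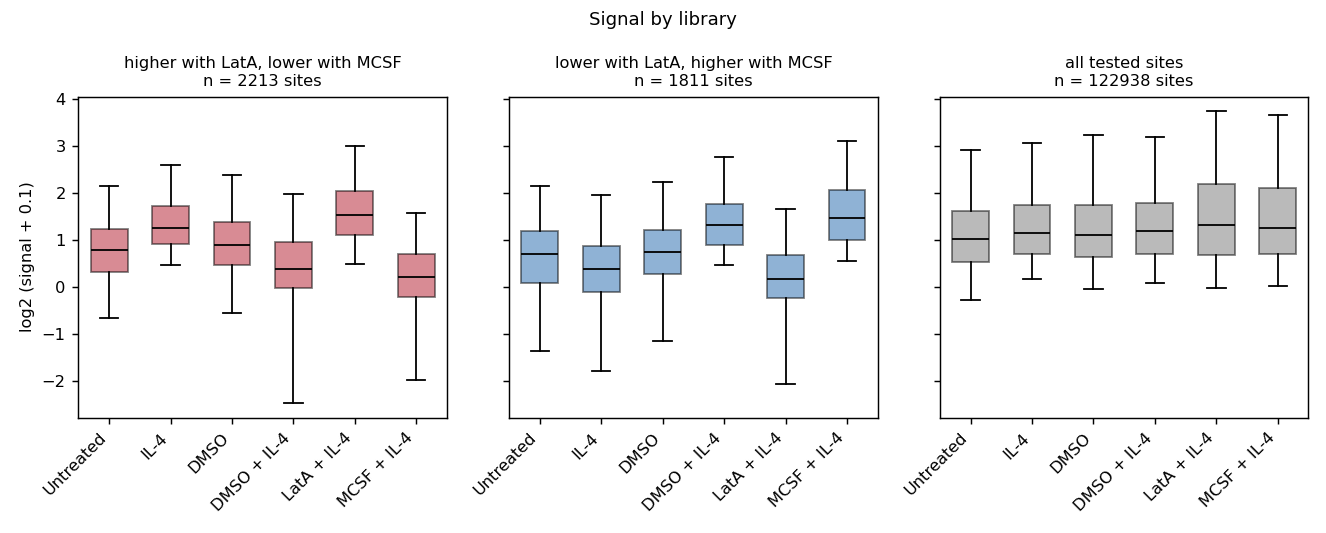
Log2 signal with 0.1 added (y axis) in each of the 6 libraries (x axis) at LatA-high, MCSF-high and all tested sites. Boxes span the middle quartiles with the median as a line and whiskers run from the 5th to the 95th percentile of sites, so the spread is over sites and not over replicates. IL-4 and DMSO + IL-4 differ in opposite directions in the first and second panels and little in the panel of all tested sites.

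The selection uses a separate control for each treatment, so the distance between the 2 log2 ratios splits exactly into LatA + IL-4 against MCSF + IL-4 and IL-4 against DMSO + IL-4. At LatA-high sites the median distance was 1.97, with a median of 1.29 between the treated libraries and 0.76 between the controls. At MCSF-high sites the median distance was 2.06, with 1.23 between the treated libraries and 0.84 between the controls. The treated libraries themselves differed by at least 1.5-fold in the direction of the selection at 83.6% of LatA-high and 84.1% of MCSF-high sites. The background over all tested sites was 16.4% higher and 13.7% lower for LatA + IL-4 over MCSF + IL-4. Both treated libraries are numerators of the selection, and the 2 parts make up the distance that it requires. A large share at opposed sites is therefore given by the choice.

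The controls carried the larger portion of the distance at 35.4% of LatA-high and 36.9% of MCSF-high sites. DMSO + IL-4 over IL-4 was lower by at least 1.5-fold at 60.8% of LatA-high sites (background 9.29%) and higher at 66.5% of MCSF-high sites (background 11.0%). The median log2 of that ratio was -0.76 at LatA-high and 0.84 at MCSF-high sites, against 0.06 over all tested sites. At sites higher in both comparisons it was 0.13, and at sites lower in both it was 0.00. Each control is a denominator of the selection, so a low or high value in 1 control library favours entry. The vehicle and the library cannot be told apart with 1 library per group.

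When the controls were exchanged, so that LatA + IL-4 was set against IL-4 and MCSF + IL-4 against DMSO + IL-4, 443 LatA-high sites (20.0%) and 278 MCSF-high sites (15.4%) were still opposed in the same direction. Over all tested sites the exchanged controls gave 1.96% and 1.54% opposed sites in the 2 directions, which is a similar yield from largely different sites. With the controls exchanged, 162 LatA-high and 132 MCSF-high sites were opposed in the reverse direction. The 443 and 278 sites that were opposed against either control, a subset defined after the values were seen, are called cross-opposed LatA-high and cross-opposed MCSF-high sites. At these the controls lay closer to each other, with a median log2 of 0.05 and 0.04 for DMSO + IL-4 over IL-4. That ratio was still past 1.5-fold upward at 31 and downward at 38 of the 443. Of the 278, it was past 1.5-fold upward at 40 and downward at 30. The background over all tested sites was 11.0% upward and 9.29% downward. The name says nothing of counting error or depth. With 0.5 added to each value the subset held 238 and 164 sites, at a mean signal of at least 2.6 it held 122 and 70, and the exact intervals of both ratios excluded 1 at 244 of the 443 (55.1%) and 171 of the 278 (61.5%).

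**Figure D3:**
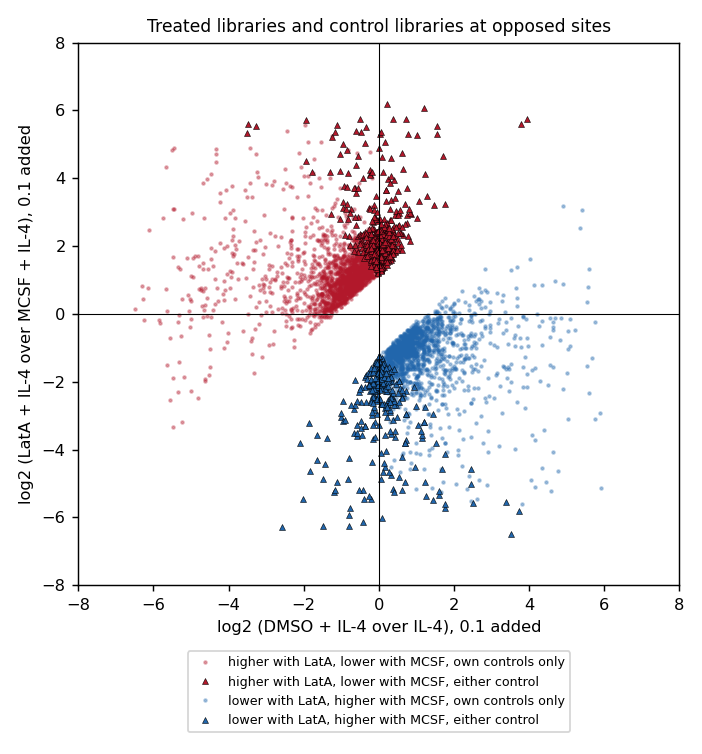
Log2 ratio of DMSO + IL-4 over IL-4 (x axis) against log2 ratio of LatA + IL-4 over MCSF + IL-4 (y axis), with 0.1 added to each signal, at the 2213 LatA-high (red) and 1811 MCSF-high (blue) sites. Triangles mark the 443 and 278 sites opposed against either control, most of which lie around 0 on the x axis, and dots mark sites opposed against their own controls only, most of which lie to the left for LatA-high and to the right for MCSF-high sites.

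Cross-opposed LatA-high sites had a median signal of 1.49 in Untreated, 1.81 in DMSO, 1.84 in IL-4, 1.84 in DMSO + IL-4, 4.17 with LatA and 0.76 with MCSF. LatA + IL-4 was the highest library at 93.0% of them and MCSF + IL-4 the lowest at 77.2%, which follows largely from the requirement that LatA lie above and MCSF below both controls. Cross-opposed MCSF-high sites had a median signal of 1.05 in Untreated, 1.28 in DMSO, 1.75 in IL-4, 1.76 in DMSO + IL-4, 0.683 with LatA and 4.55 with MCSF. MCSF + IL-4 was the highest library at 91.0% of these and LatA + IL-4 the lowest at 52.9%, with Untreated the lowest at a further 100 of the 278. The 2 subsets thus differed in the libraries that did not receive IL-4, which were close to the controls at cross-opposed LatA-high sites and below them at cross-opposed MCSF-high sites.

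A mean of at least 100 reads was reached by 12 cross-opposed LatA-high and 6 cross-opposed MCSF-high sites. Of these, 11 and 5 are plotted and some described by position, without sites on chromosome 18 and without chr2:52035443-52036204, where 5 of the 6 counts lay within 1 of a multiple of 10. They include chr10:86391513-86392096 and chr5:11169894-11170523 above. At chr17:82064322-82065115 the signal was 5.18 in Untreated, 9.80 in DMSO, 12.1 in IL-4, 11.9 in DMSO + IL-4, 19.3 with LatA and 7.21 with MCSF, so LatA lay above and MCSF below all 3 libraries of IL-4 and DMSO. The site at chr11:119489623-119490691 had 231 reads in Untreated, 159 in DMSO, 100 in IL-4, 93 in DMSO + IL-4, 235 with LatA and 32 with MCSF. There IL-4 was 1.74-fold (1.37 to 2.22) below Untreated, LatA 2.15-fold (1.69 to 2.77) above its control and MCSF 2.62-fold (1.74 to 4.03) below its control. All 11 plotted LatA-high sites had log2 ratios for LatA of 0.64 to 2.41 and for MCSF of -0.63 to -1.93, as selected.

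Of the 5 cross-opposed MCSF-high sites with that depth, chr17:86472561-86473048 showed the strongest MCSF signal. Its reads were 53 in Untreated, 84 in DMSO, 198 in IL-4, 141 in DMSO + IL-4, 96 with LatA and 542 with MCSF. IL-4 was 4.96-fold (3.64 to 6.84) above Untreated and DMSO + IL-4 2.31-fold (1.75 to 3.06) above DMSO, LatA was 1.72-fold (1.32 to 2.26) below its control, and MCSF 3.27-fold (2.77 to 3.86) above its control. Both chr4:144518595-144520671 and chr13:33021010-33021750 were also higher with IL-4 in both pairs. The former had signals of 6.04 in Untreated, 5.02 in DMSO, 10.4 in IL-4, 9.94 in DMSO + IL-4, 6.35 with LatA and 25.7 with MCSF. The latter had 4.46, 4.78, 9.79, 10.4, 6.35 and 15.8. At these 3 sites LatA was between the libraries with and without IL-4, and MCSF was above all. The remaining sites, chr13:60197954-60199093 and chr5:111365203-111366833, were not higher with IL-4 in both pairs. DMSO was above Untreated there by 1.86-fold (1.46 to 2.37) and 3.55-fold (2.64 to 4.83), and at chr17:86472561-86473048 by 1.93-fold (1.35 to 2.77).

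**Figure D4:**
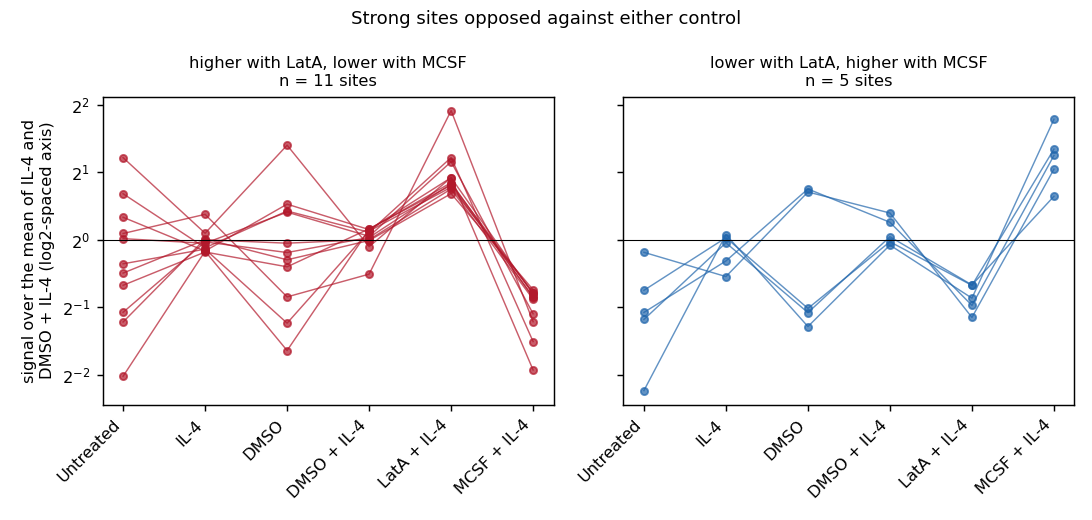
Signal divided by the mean of the IL-4 and DMSO + IL-4 signals (y axis, log2-spaced) in each library (x axis) at the 11 LatA-high and 5 MCSF-high sites opposed against either control with a mean of at least 100 reads (chromosome 18 and sites with 5 or 6 counts near a multiple of 10 left out). Each line is 1 site. The LatA and MCSF points lie on opposite sides of 1 at every site, as selected, while Untreated and DMSO vary from site to site.

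The 2 directions differed in how many of their sites responded to IL-4. A response was counted when a site was at least 1.5-fold higher in IL-4 over Untreated and also in DMSO + IL-4 over DMSO, which occurred at 8.85% of tested sites. It was seen at 168 LatA-high sites, 7.59% (6.52 to 8.77), and at 332 MCSF-high sites, 18.3% (16.6 to 20.2). Among cross-opposed sites it was seen at 63 of 443 LatA-high sites, 14.2% (11.1 to 17.8), and at 107 of 278 MCSF-high sites, 38.5% (32.7 to 44.5). At a mean of at least 100 reads it was seen at 3 of 41 LatA-high and 17 of 35 MCSF-high sites, or 48.6% (31.4 to 66.0) of the latter, where the background was 7.39%. Each of these ratios shares its IL-4 library with the selection, and the libraries without IL-4 do not enter it except through the mean signal. Of the 10882 tested sites with this response, 3.05% were MCSF-high and 1.54% LatA-high.

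A signal lower with IL-4 in both pairs was less common. It was seen at 91 LatA-high sites (4.11%) and 69 MCSF-high sites (3.81%), against 2.38% of tested sites. At cross-opposed sites it was seen at 24 of 443 (5.42%) and 19 of 278 (6.83%). At a mean of at least 100 reads it was seen at 2 LatA-high and 0 of 35 MCSF-high sites, which leaves up to 10.0% for the latter by the exact interval, and the background was 2.02%.

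**Figure D5:**
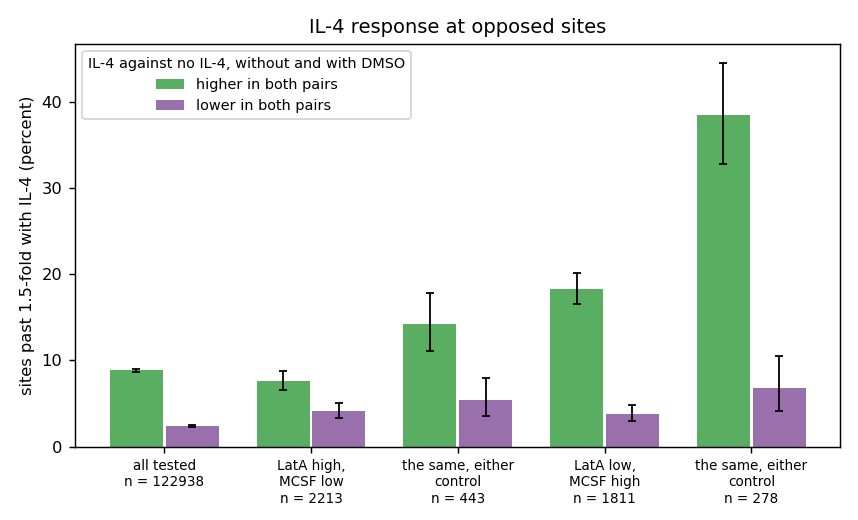
Percent of sites (y axis) that were at least 1.5-fold higher (green) or lower (purple) with IL-4 both without and with DMSO, for all tested, LatA-high, cross-opposed LatA-high, MCSF-high and cross-opposed MCSF-high sites (x axis). Bars are shares and error bars exact 95% intervals, which treat sites as independent draws and do not cover differences between replicate libraries. The share of higher sites reaches 38.5% at cross-opposed MCSF-high sites against 8.85% of tested sites.

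The 332 MCSF-high sites that were higher with IL-4 had a median signal of 0.575 in Untreated and 0.875 in DMSO, 1.97 in IL-4 and 2.89 in DMSO + IL-4, 1.37 with LatA and 4.78 with MCSF. MCSF + IL-4 was at least 1.5-fold above Untreated at all 332, which their choice fixes, and LatA + IL-4 was at least 1.5-fold above DMSO at 172 and below it at 27. Of all 10882 tested sites with the response, LatA + IL-4 was above DMSO at 9709 and below it at 164. For the 107 cross-opposed ones the medians were 0.527 in Untreated, 0.758 in DMSO, 2.29 in IL-4, 2.41 in DMSO + IL-4, 1.02 with LatA and 5.54 with MCSF. These were chosen for a LatA signal at least 1.5-fold below both IL-4 controls, so a lower level with LatA is given by the choice. As a description of how low it lay, LatA + IL-4 was less than 1.5-fold above DMSO at 65 of the 107, and at 1173 of the 10882 tested sites with the response, which were not chosen on LatA.

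The widest IL-4 response among the 16 strong IL-4-responsive MCSF-high sites named was at chr16:58415270-58415923. It had 52 reads in Untreated, 16 in DMSO, 295 in IL-4, 306 in DMSO + IL-4, 185 with LatA and 610 with MCSF. IL-4 was 7.53-fold (5.59 to 10.3) above Untreated and DMSO + IL-4 was 26.3-fold (15.9 to 46.6) above DMSO. LatA was 1.94-fold (1.61 to 2.34) below its control and MCSF 2.47-fold (2.14 to 2.85) above its control. At chr2:5239533-5240416 the signals were 3.55 in Untreated, 3.03 in DMSO, 11.8 in IL-4, 14.6 in DMSO + IL-4, 2.19 with LatA and 20.6 with MCSF, and LatA was thus below both libraries without IL-4. The LatA library was 6.68-fold (4.57 to 10.0) below DMSO + IL-4 there, the widest difference with LatA among the 16 strong IL-4-responsive MCSF-high sites named. At chr1:14474595-14475035 the signal was 28.0 in DMSO + IL-4 and 11.5 with LatA, a 2.44-fold (2.02 to 2.95) difference, with 6.24 in DMSO, and it was 37.9 with MCSF and 23.1 in IL-4.

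LatA-high sites that were higher with IL-4 gave the reverse order. At chr17:43673525-43674310 the signal was 1.82 in Untreated and 3.62 in DMSO, 13.7 in IL-4 and 12.5 in DMSO + IL-4, 19.9 with LatA and 6.83 with MCSF. MCSF was 2.01-fold below IL-4 and still above Untreated. Over the 63 cross-opposed LatA-high sites with the response, the median was 0.719 in Untreated, 0.992 in DMSO, 2.23 in IL-4, 2.41 in DMSO + IL-4, 4.58 with LatA and 0.910 with MCSF. At 24 of the 63, MCSF + IL-4 was at least 1.5-fold above Untreated, and at 2 it was at least 1.5-fold below. Of the 10882 tested sites with the response 9761 were above and 143 below, and the 63 were chosen for a low MCSF signal.

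Taken 1 at a time, the IL-4 ratios of the full lists followed their controls. Each has as numerator a library that is a denominator of the selection, so its shares and signs are tied to the choice. IL-4 over Untreated was at least 1.5-fold higher at 42.0% of LatA-high and 23.2% of MCSF-high sites (background 20.8%) and lower at 6.24% and 41.1% (background 8.84%). DMSO + IL-4 over DMSO was higher at 10.3% of LatA-high and 47.9% of MCSF-high sites (background 16.6%) and lower at 43.2% and 7.01% (background 12.6%). The 2 ratios therefore had opposite median signs in each direction, 0.43 and -0.44 on the log2 scale at LatA-high sites and -0.39 and 0.54 at MCSF-high sites, where the former turned to 0.09 at a mean signal of at least 2.6. At the cross-opposed sites the signs were the same, 0.31 and 0.08 at LatA-high and 0.86 and 0.57 at MCSF-high sites.

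The treated libraries were also set against the libraries without IL-4. LatA + IL-4 over DMSO was at least 1.5-fold higher at 50.4% of LatA-high sites and 15.5% of MCSF-high sites (background 31.5%), and lower at 6.33% and 46.8% (background 15.0%). MCSF + IL-4 over Untreated was higher at 9.22% of LatA-high and 53.1% of MCSF-high sites (background 36.6%), and lower at 996 of the 2213 and 87 of the 1811 sites (background 14.3%). At cross-opposed sites the medians were further apart. LatA + IL-4 over DMSO had a median log2 of 1.12 at cross-opposed LatA-high and -0.78 at cross-opposed MCSF-high sites, and MCSF + IL-4 over Untreated of -0.71 and 2.14. These ratios share the treated libraries with the selection and are given as a description. At a mean signal of at least 2.6 the median of LatA + IL-4 over DMSO at MCSF-high sites was -0.16, against -0.51 over all of them.

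DMSO over Untreated shares no library with either ratio of the selection. Its median log2 was 0.16 at LatA-high sites, 0.19 over all tested sites and 0.07 at MCSF-high sites, where it turned to -0.04 with scaling by total reads and to -0.02 with the trend removed. A signal at least 1.5-fold higher was seen at 23.9% of sites in either direction (background 16.6%), and a lower one at 14.7% of LatA-high and 17.3% of MCSF-high sites (background 6.89%). Opposed sites thus passed the threshold at above the background share both upward and downward, in either direction of the selection. Among sites with a mean signal of 5 or more, DMSO was higher at 25.3% of LatA-high and 28.8% of MCSF-high sites against 15.4% of tested sites, and lower at 8.86% and 10.6% against 1.25%. One of the most opposed sites, chr15:90396414-90397485, had 3 reads in Untreated, 88 in DMSO, 80 in IL-4, 18 in DMSO + IL-4, 111 with LatA and 19 with MCSF.

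Opposed sites were concentrated at low signal. Among tested sites with a mean signal of 1.3 to 2, 2.43% were LatA-high and 2.09% MCSF-high, and at a mean signal of 5 or more 0.435% and 0.363% were. The median LatA-high site had a mean of 28.0 reads per library and the median MCSF-high site 25.8, against 32.8 for tested sites. The exact intervals of both ratios excluded 1 at 1001 LatA-high sites (45.2%) and 847 MCSF-high sites (46.8%), where, in any direction, they did at 20.5% of tested sites. Both ratios chose the members, so nothing is read from these shares. For the remainder at least 1 of the ratios is within counting error of no difference.

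Peak calls, which the authors made in each library separately, come from the same reads as the signals. A peak overlapped 92.9% of LatA-high sites in LatA + IL-4, 94.0% in IL-4, 48.3% in MCSF + IL-4 and 55.6% in DMSO + IL-4. For MCSF-high sites the shares were 94.1% in MCSF + IL-4, 91.3% in DMSO + IL-4, 47.0% in IL-4 and 42.8% in LatA + IL-4. Over tested sites the shares lay between 79.7% and 85.1%. In the libraries that the ratios did not use, a peak was called at 79.8% (78.1 to 81.5) of LatA-high sites in Untreated and 78.7% (76.9 to 80.4) in DMSO, and at 69.7% (67.6 to 71.9) and 66.5% (64.3 to 68.7) of MCSF-high sites. Over tested sites these shares were 85.1% in Untreated and 83.0% in DMSO, above those at opposed sites of either direction. A peak in both high libraries and in neither low library was found at 487 LatA-high sites (22.0%) and 501 MCSF-high sites (27.7%), a pattern close to the selection itself, against 2.24% and 1.60% of tested sites. A peak in all 6 libraries was found at 28.4% of LatA-high, 16.1% of MCSF-high and 61458 of the 122938 tested sites.

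The sites had a median width of 550 bp at LatA-high, 584 bp at MCSF-high and 589 bp at tested sites. A width of 1000 bp or more was found at 8.63% of LatA-high, 10.0% of MCSF-high and 12.4% of tested sites. The order was the other way among those that averaged 100 reads or more, of which 26 of 41 LatA-high sites, 63.4% (46.9 to 77.9), and 20 of 35 MCSF-high sites, 57.1% (39.4 to 73.7), were 1000 bp or wider, against 31.3% of tested sites. Opposed sites lay on every chromosome from 1 to 19. LatA-high sites made up between 1.43% of tested sites (chromosome 11) and 2.16% (chromosome 18), and MCSF-high sites between 1.09% (chromosome 8) and 1.87% (chromosome 16).

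Another opposed site was found within 10 kb of 133 LatA-high sites (6.01%), and the nearest had the same direction for 94 of them, 70.7% (62.2 to 78.2). For MCSF-high sites these numbers were 90 (4.97%) and 50, or 55.6% (44.7 to 66.0). LatA-high sites were 2213 of the 4024 opposed sites, or 55.0%. Within 100 kb another opposed site was found for 778 LatA-high (35.2%) and 678 MCSF-high sites (37.4%), with shares of the same direction of 58.4% and 51.5%. Neighbours within 10 kb are not independent of each other, since a pair counts for both of its members.

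Some opposed sites had counts near multiples of 10 in most libraries. The study's alignment allowed up to 10 alignments per read. Of the 6 counts of a site, 5 or 6 lay within 1 of a multiple of 10 at 108 LatA-high sites, 4.88% (4.02 to 5.86), and at 101 MCSF-high sites, 5.58% (4.57 to 6.74), against 1.67% (1.60 to 1.75) of tested sites. Counts that were exact multiples of 10 made up 13.4% and 12.9% of counts at LatA-high and MCSF-high sites and 10.4% at tested sites. Without the marked sites 2105 LatA-high and 1710 MCSF-high sites remained, and 425 and 255 of the cross-opposed ones. The part of repeated alignments in these counts was not tested.

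The most opposed sites, ranked by the smaller of the 2 ratios among sites averaging 50 reads or more, included 2 of the 12 LatA-high and 3 of the 12 MCSF-high sites with 5 or 6 such counts. The first LatA-high site, chr19:55602846-55603827, had 106 reads in Untreated, 32 in DMSO, 108 in IL-4, 0 in DMSO + IL-4, 69 with LatA and 10 with MCSF, so no fold is given for LatA, whose control had no reads. Its place in the ranking was set by MCSF, the smaller ratio, which was 9.05-fold (4.74 to 19.4) below IL-4. At chr3:51102303-51103171 the reads were 32 in Untreated, 128 in DMSO, 80 in IL-4, 10 in DMSO + IL-4, 135 with LatA and 13 with MCSF. Of the 12 LatA-high sites of this ranking 3 were cross-opposed, where 87 of the 267 LatA-high sites of that depth were. One of the 3, chr4:140064283-140065794, had 99 reads in Untreated, 97 in DMSO, 39 in IL-4, 20 in DMSO + IL-4, 106 with LatA and 1 with MCSF, which put MCSF 32.7-fold (5.53 to 1324) below IL-4. Another, chr15:100747397-100748639, had 186, 77, 60, 19, 87 and 9 reads in the same order of libraries.

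Among the 12 most opposed MCSF-high sites 4 were cross-opposed, where 35 of the 187 of that depth were. The first, chr16:16561152-16562114, had 91 reads in Untreated, 66 in DMSO, 32 in IL-4, 51 in DMSO + IL-4, 4 with LatA and 112 with MCSF. LatA was 15.0-fold (5.50 to 57.0) below DMSO + IL-4 there and MCSF 4.18-fold (2.80 to 6.40) above IL-4, while IL-4 itself was 2.14-fold (1.42 to 3.32) below Untreated. At chr12:101703352-101703777 the reads were 43 in Untreated, 16 in DMSO, 68 in IL-4, 71 in DMSO + IL-4, 5 with LatA and 206 with MCSF, and this narrow site of 426 bp was higher with IL-4 in both pairs. The site at chr3:95275346-95276815 had 30, 120, 40, 71, 20 and 100 reads, all 6 within 1 of a multiple of 10. DMSO over Untreated passed 1.5-fold at 10 of the 12 LatA-high and 7 of the 12 MCSF-high sites of the ranking, where the background over tested sites was 16.6% upward and 6.89% downward.

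The threshold separated sites with similar values. Just inside it, the LatA-high site chr6:27894809-27895945 had 101 reads in DMSO + IL-4 and 180 with LatA, a ratio of 1.52 (1.18 to 1.96), and 130 reads in IL-4 and 72 with MCSF, 1.51-fold (1.13 to 2.05) lower. Just outside it, chr7:28479240-28479981 had 79 and 160 reads in the former pair and 83 and 46 in the latter, and MCSF was again 1.51-fold (1.04 to 2.22) lower before 0.1 was added. For MCSF-high sites, chr9:121610595-121611678 lay just inside, with 151 reads in DMSO + IL-4, 110 with LatA, 127 in IL-4 and 161 with MCSF. Just outside lay chr11:3051704-3052177, with 128, 91, 162 and 204 reads in that order. Counts on either side of the threshold were thus alike.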

How the data were processed

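The 6 groups of 1 ATAC-seq library each were taken from the labels. Per the study's methods, reads were trimmed with Cutadapt, aligned to mm9 with Bowtie2, which reported up to 10 alignments per read, and freed of duplicates (Picard), blacklisted regions and mitochondrial reads. Peaks were called with macs2 and sites counted with featureCounts. Tool versions are not given in the sources used here. The deposited signal is CPM that the authors scaled with TMM factors in edgeR. Whole reads were recovered from 100% of its values (tolerance 0.001 read). In the deposited peak lists, the authors' fold enrichment of each peak and its −log10 q-value describe a peak within 1 library, the latter used as a stricter threshold, and the deposited score was not used further.

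Ratios were taken with 0.1 added, after a mean signal of at least 1.3 over the 6 libraries, which left out 77.0% of sites and stands for 16.2 to 27.1 reads per library. The 95% intervals of shares and of ratios between read counts are Clopper-Pearson intervals. Reads carried no molecular identifiers. Each group has 1 library, so the intervals of ratios leave out any error beyond counting, and those of shares treat sites as independent draws. A peak counted as present with at least 1 bp of overlap. Analyses used Python 3.11.15, numpy 2.4.6, pandas 2.3.3 and scipy 1.17.1. The selection was also run on simulated counts with level controls and counting error alone. Changes were planted there only at sites with a mean signal of at least 5, which most opposed sites did not reach.

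The members, lists and rules were chosen with earlier results of these data known. Sites were named by rule: in each direction, the 12 most opposed by the smaller ratio with a mean of at least 50 reads and not on chromosome 18, the 5 with the highest mean signal, and 3 on each side of the threshold. Sites opposed against either control, or higher with IL-4 in both pairs, with a mean of at least 100 reads and not on chromosome 18 were named by a rule added after the values were seen, the former without sites where 5 or 6 counts lay within 1 of a multiple of 10. Positions are in mm9, counted from 1, and the last site on chromosome 1 ends at 197195351, beyond the end of the last GRCm38 gene there (195291439). Neither genes nor sequence of GRCm38 were used for that reason, and the planned panel of genes is not analysed here. The number of per-sample columns left unused was 0. The alternatives tried were other scalings, pseudocounts, filters, thresholds and controls, and removal of the trend with mean signal.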

Additional observations from a re-analysis of the deposited data

Results flagged for a closer look

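The IL-4 response took opposite directions without and with DMSO at a number of opposed sites, and the difference was not tested because each ratio rests on 1 library a side. At LatA-high sites, 339 (15.3%) passed 1.5-fold upward in IL-4 over Untreated and downward in DMSO + IL-4 over DMSO, and 7 (0.316%) showed the reverse. At MCSF-high sites, 23 (1.27%) went up without and down with DMSO and 274 (15.1%) showed the reverse. Over all tested sites these numbers were 1710 (1.39%) and 1281 (1.04%). Both of the IL-4 controls are also the denominators of the selection, so the direction of this difference is tied to it.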

How the results depend on the processing

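No paired analysis was possible because each group has 1 library, so the groups share fewer than 2 replicate numbers, and leaving out a replicate was not possible for the same reason. In each pair of values below the first is for LatA-high and the second for MCSF-high sites. The counts of opposed sites, 2213 and 1811, were 1341 and 1126 with 0.5 added, 485 and 472 at 2-fold, 429 and 346 at a mean signal of at least 2.6, 28018 and 27899 with no filter, 1094 and 733 against the mean of the 2 controls, and 1001 and 847 where both exact intervals exclude 1. Under the other 6 settings they lay between 2105 and 2411 and between 1668 and 2008, although with exchanged controls 443 and 278 sites were shared. A filter of 1.3 reaches sites of few reads, where counting error limits single sites.

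Scaling by total reads moved the median of DMSO over Untreated over all tested sites by -0.12 on the log2 scale. The same median at opposed sites was 0.26 and 0.18 at a mean signal of at least 2.6, 0.0451 and -0.0359 with scaling by total reads, and 0.0542 and -0.0193 with the trend removed, and with median-of-ratios size factors it was 0.12 at LatA-high sites. IL-4 over Untreated was 0.54 and 0.0856 at a mean signal of at least 2.6, 0.40 at LatA-high sites with size factors, 0.34 there with the trend removed, and -0.32 at MCSF-high sites with 0.5 added. DMSO + IL-4 over DMSO was -0.39 and 0.62 with 0.5 added, -0.30 and 0.87 at a mean signal of at least 2.6, -0.39 and 0.66 with scaling by total reads, and -0.53 at LatA-high sites with the trend removed.

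LatA + IL-4 over DMSO was 0.77 and -0.16 at a mean signal of at least 2.6, 0.64 and -0.42 with scaling by total reads, 0.52 at LatA-high sites with the trend removed and -0.42 at MCSF-high sites with 0.5 added. MCSF + IL-4 over Untreated at LatA-high sites was -0.44 with 0.5 added, -0.37 at a mean signal of at least 2.6, -0.55 with scaling by total reads, -0.53 with size factors and -0.56 with the trend removed, and at MCSF-high sites it was 1.37 at a mean signal of at least 2.6. LatA + IL-4 over MCSF + IL-4 was 1.43 and -1.34 at a mean signal of at least 2.6, and at LatA-high sites 1.22 with 0.5 added and 1.24 with the trend removed. The cause of these changes was not tested.

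The share of cross-opposed MCSF-high sites higher with IL-4 in both pairs was 54.3% at a mean signal of at least 2.6, and between 36.6% and 42.7% under the other alternatives, which for this share were chosen after seeing the data, as was the removal of sites near multiples of 10. Counting peaks with a −log10 q of at least 5 alone gave 70.1% and 58.4% with a peak in Untreated, 71.0% and 56.6% in DMSO, 87.5% and 38.2% in IL-4, 43.7% and 78.7% in DMSO + IL-4, 33.4% and 84.8% in MCSF + IL-4, and 86.6% and 32.4% in LatA + IL-4. Neighbours of the same direction within 100 kb made up 58.4% at LatA-high sites.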

Other observations

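On chromosome X, which the selection leaves out, 215 of 8170 sites that passed the filter were opposed by the same values.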
